A study of Mus musculus with 36 samples.

Results

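The genes described here are 40 interferon-stimulated genes of the mouse, chosen by symbol from 46078 rows in the largest of the 3 RNA-seq tables. By role they comprised 4 signalling and transcription factors (Stat2, Irf9, Irf7, Irf1), 5 sensors of RNA and other nucleic acids (Ifih1, Ddx58, Dhx58, Zbp1, Eif2ak2), 5 genes of the ISG15 system and of ADP-ribosylation (Isg15, Usp18, Trim25, Parp9, Parp14), 17 antiviral effectors (Ifit1, Ifit2, Ifit3, Oas1a, Oas2, Oas3, Oasl2, Mx1, Mx2, Rsad2, Cmpk2, Bst2, Isg20, Ifi35, Ifi44, Xaf1, Rtp4) and 9 guanylate-binding proteins or GBPs (Gbp2 to Gbp10). All 40 symbols were found in every table, but Gbp6 occupied 2 rows in the table of sorted cells and was given no value there. A filter of at least 10 normalized counts in at least 2 libraries left 38 members in each table: Gbp6 and Gbp10 were not tested in sorted cells, Mx1 and Ifi44 not in Pax5-/- cells, and Oasl2 and Rsad2 not in the cultured wild-type and Sirt7-/- cells. A member that passes such a filter through the group in which it is high is more likely to differ, so the counts over members describe the tested genes only.

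Type I interferons bind the receptor IFNAR and activate the factor ISGF3, which contains STAT2 and IRF9. ISGF3 binds the interferon-stimulated response element, found upstream of many of these genes. Interferon-gamma acts in part through IRF1, and is the classical inducer of the GBPs, large GTPases that attack pathogen membranes and vacuoles. In mice the GBP genes lie in 2 clusters, on chromosomes 3 and 5, and B cell progenitors transcribe part of the programme without infection.

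The study asked how acetylation of the B cell factor Pax5 at its K198 residue, and its removal by the deacetylase SIRT7, shape B cell development. Pro-B cells (CD43+) and pre-B cells (CD43-) were sorted from the bone marrow of 2 wild-type and 2 Sirt7-/- mice of the 129Sv strain, with 1 library of each stage from each mouse. Progenitors of Pax5-/- mice, described as bone marrow pro-B cells by the labels and as fetal liver progenitors of C57BL/6 background by the methods, were infected with a retrovirus carrying the selection marker alone (empty vector, EV), Pax5WT, the acetylation mimic Pax5K198Q or the deacetylation mimic Pax5K198R. Cultured pro-B cells came from bone marrow by the methods, and the paper states the 129Sv strain for its Sirt7-/- experiments. They were wild-type with EV, or Sirt7-/- with EV, Pax5WT or Pax5K198R. All transduced cells grew on mitomycin C-treated OP9 stroma with IL-7, SCF and FLT3-L, and each group held 2 libraries. With 2 libraries against 2, an exact permutation test cannot give a two-sided p below 0.33, so tests rest on limma fitted over all genes of a table. The libraries held 50004827 to 55536608 reads in sorted cells, and summed to 28865461 to 30520853 normalized counts in Pax5-/- cells and 27814214 to 30160880 in the cultured wild-type and Sirt7-/- cells. In bulk libraries, fewer cells of a type and less RNA per cell cannot be told apart.

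The targeted genes followed the labels. Sirt7 gave 2692 and 2533 normalized counts in wild-type against 363 and 366 in Sirt7-/- pro-B cells, 5613 and 5219 against 1066 and 821 in pre-B cells, and 1324 and 905 against 336 and 387 in cultured cells with EV. In Pax5-/- cells, Pax5 gave 2201 and 2103 normalized counts with EV, 6458 and 6152 with Pax5WT, 8918 and 8963 with Pax5K198Q, and 21162 and 16609 with Pax5K198R. The 3 forms were therefore not carried at matched RNA levels, and an effect of the form and of its level cannot be told apart. The stage of a sorted library was taken from its title, because the cell type label followed the replicate number; 5 pre-B markers summed to 415 to 568 CPM (normalized counts scaled to a common per-million total) in libraries titled pro-B and 1662 to 2002 in those titled pre-B.

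A pair of libraries stood apart from their own replicates over these genes. Replicate 2 of the cultured wild-type cells with EV exceeded replicate 1 in 28 of the 29 tested members outside the GBPs, with a median log2 difference of 1.63, and 17 of them differed at least 2-fold, against 2.26% of all tested genes. Irf7, the factor that amplifies interferon production, gave 137 and 1195 normalized counts there, and Mx2, a dynamin-like GTPase, gave 14.5 and 447. In Pax5-/- cells with Pax5K198R the order was opposite: replicate 1 exceeded replicate 2 by a median of 2.01 on the log2 scale, and was at least 2-fold higher for 21 of the 29 members outside the GBPs, against 5.43% of all genes. Rsad2, the radical SAM enzyme viperin, gave 627 and 42.9 normalized counts in these 2 libraries, and Usp18, the protease that removes ISG15, gave 164 and 14.6. The counts of called members in comparisons with either group are also given without these libraries.

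**Figure D1:**
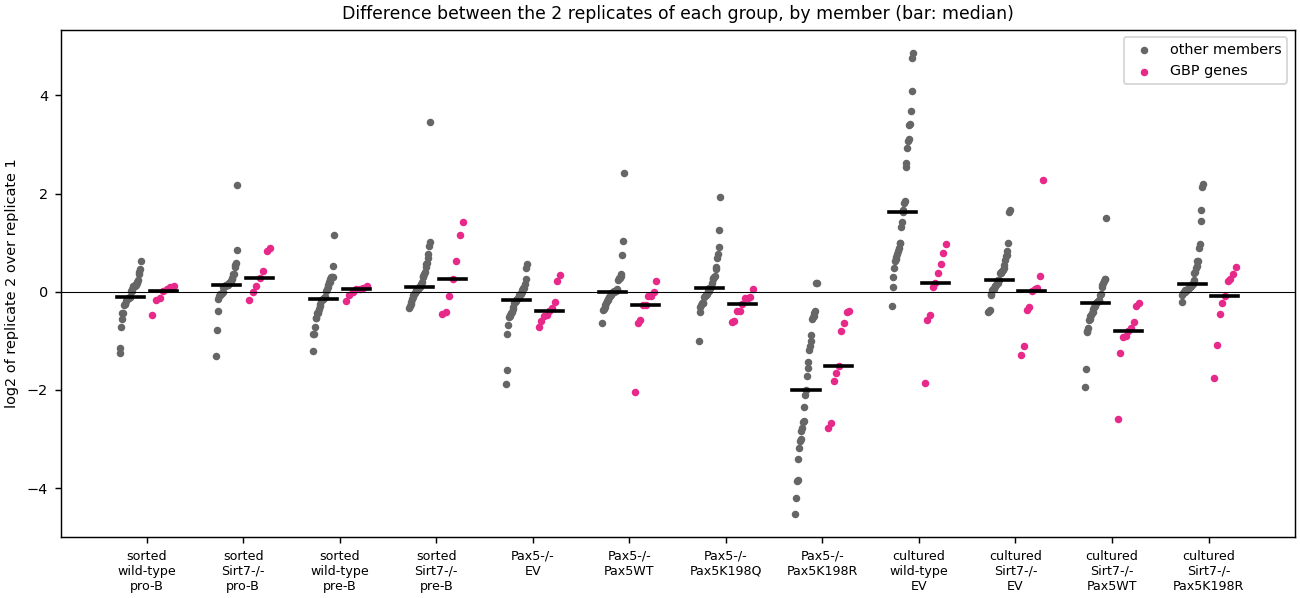
Difference between the 2 replicates of each group, as log2 of replicate 2 over replicate 1 of the normalized count plus 1, for the tested members outside the GBPs (grey) and the GBP genes (pink), with a bar at the median. The points outside the GBPs sit around a median of 1.63 in cultured wild-type cells with EV and of -2.01 in Pax5-/- cells with Pax5K198R, and nearer to 0 in the other groups.

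The GBP genes of the 2 chromosomes lay on opposite sides of EV when Pax5 was returned to Pax5-/- cells. With Pax5WT, Gbp2, Gbp3, Gbp5 and Gbp7 of chromosome 3 all rose, with a median log2 difference of 1.88 from EV, whereas Gbp4, Gbp6, Gbp8, Gbp9 and Gbp10 of chromosome 5 had a median of -1.22 and none passed the test. With Pax5K198R the medians were 1.93 and -2.28, and with Pax5K198Q 1.14 and -0.88, beside medians of all tested genes between -0.01 and 0.01. The medians with Pax5K198R were 1.63 and -3.11 without its replicate 1 and 2.24 and -1.43 without its replicate 2. In each of the 3 comparisons both libraries of the form lay above both EV libraries for 4 of 4 genes on chromosome 3 and below them for 5 of 5 on chromosome 5. Libraries lay apart in this way, upward or downward, for 21.3% and 21.3% of all genes with Pax5WT, 16.1% and 18.1% with Pax5K198Q, and 23.5% and 23.2% with Pax5K198R. The 3 comparisons share the same 2 EV libraries.

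The chromosome 3 genes are shown by the short stretch upstream of each start that holds the core of the interferon-stimulated response element, GAAA followed by any 2 bases and another GAAA. It was searched on both strands, and on the other strand it reads as TTTC, any 2 bases and TTTC. The stretches are from RefSeq on GRCm38.p6, all on the plus strand at chr3:142620594-142620623 (Gbp2), chr3:142559989-142560024 (Gbp3), chr3:142496759-142496788 (Gbp5) and chr3:142530273-142530302 (Gbp7), and the capitals mark the element.
Gbp2: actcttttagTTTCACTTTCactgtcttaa
Gbp3: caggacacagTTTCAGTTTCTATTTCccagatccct
Gbp5: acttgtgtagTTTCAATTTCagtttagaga
Gbp7: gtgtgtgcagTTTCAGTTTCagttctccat
Each of the 4 chromosome 3 genes had a promoter entry with the element within 250 bases upstream of the start, although a further entry of Gbp3, at chr3:142560106-142560355, held none. At least 1 entry with the element was found for 12 of the 26 members with a RefSeq promoter (46.2%), against 3.46% of 27025 genes. Another pattern, TTCNNNGAA, the core of the gamma-activated site, reads the same on either strand and was found in 8 of the 26 (30.8%), Gbp5 and Gbp7 among them, against 8.13% of all genes; the 2 patterns can overlap. No promoter entry was matched for Dhx58, Gbp4, Gbp6, Gbp8, Gbp9, Gbp10, Mx1, Mx2, Oas2, Parp9, Parp14, Rtp4, Usp18 and Zbp1.

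Gbp2, a GTPase that coats pathogen vacuoles, gave 77.5 and 98.4 normalized counts with EV, 583 and 677 with Pax5WT, 242 and 250.4 with Pax5K198Q, and 695 and 449 with Pax5K198R. Every library of a Pax5 form lay above both EV libraries, and both Pax5K198Q libraries lay below those of the other forms. Against EV the log2 difference was 2.83 ± 0.24 (SE) with Pax5WT (limma, adjusted p = 0.0012), 1.48 ± 0.24 with Pax5K198Q (adjusted p = 0.037) and 2.66 ± 0.24 with Pax5K198R (adjusted p = 0.00084). Gbp5, which promotes inflammasome assembly, gave 148 and 173 normalized counts with EV, 819 and 815 with Pax5WT, 546 and 416 with Pax5K198Q, and 815 and 607 with Pax5K198R. The 2 replicates with Pax5WT were nearly identical, and no library of a form reached down to the EV values. Its log2 difference from EV was 2.35 ± 0.20 (adjusted p = 0.0012), 1.57 ± 0.20 (adjusted p = 0.013) and 2.13 ± 0.20 (adjusted p = 0.001) in the same order by limma.

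Gbp7, the most abundant GBP per unit length once Pax5WT was present, gave 2072 and 1802 normalized counts with EV, 5288 and 4969 with Pax5WT, 3463 and 3235 with Pax5K198Q, and 5676 and 4303 with Pax5K198R. The order of the groups was as for Gbp2, with Pax5K198Q between EV and the other forms. By limma Gbp7 rose with Pax5WT (1.41 ± 0.14, adjusted p = 0.0024) and with Pax5K198R (1.35 ± 0.14, adjusted p = 0.0014). Gbp3, a GTPase of the same family, gave 497 and 394 normalized counts with EV, 1222 and 1143 with Pax5WT, 764 and 642 with Pax5K198Q, and 1938 and 1119.8 with Pax5K198R. The Pax5K198R replicates differed more from each other than those of any other form. By limma Gbp3 rose with Pax5WT (1.42 ± 0.25, adjusted p = 0.027) and Pax5K198R (1.73 ± 0.25, adjusted p = 0.0052). Among all tested genes limma called 3.25% with Pax5WT, 0.922% with Pax5K198Q and 9.92% with Pax5K198R.

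On chromosome 5, Gbp8 gave 5236 and 3721 normalized counts with EV, 2764 and 1845 with Pax5WT, 3386 and 2583 with Pax5K198Q, and 1616 and 511 with Pax5K198R. Gbp4 gave 2959 and 2117 with EV, 1181 and 975 with Pax5WT, 1422 and 1293 with Pax5K198Q, and 928 and 323 with Pax5K198R. Both genes were lowest in replicate 2 with Pax5K198R, and no library of a form overlapped the EV range. By limma Gbp4 (-2.19 ± 0.42, adjusted p = 0.017), Gbp8 (-2.28 ± 0.48, adjusted p = 0.024) and Gbp10 (-4.56 ± 0.91, adjusted p = 0.019) fell with Pax5K198R. Gbp10, listed at 0 in all sorted libraries but 1, gave 376 and 227 normalized counts with EV, 75.5 and 17.6 with Pax5WT, 48.6 and 44.7 with Pax5K198Q, and 30.4 and 3.92 with Pax5K198R. Gbp6 gave 2381 and 1571 with EV and 128 to 879 with the forms, and Gbp9 gave 1082 and 824 with EV and 150.5 to 781 with the forms. Neither passed the test, although their libraries did not overlap with those of EV.

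The chromosome 5 values carry an uncertainty of assignment. Of the 31-base words in the transcripts of each gene, 89.8% for Gbp10, 74.2% for Gbp6, 31.1% for Gbp8, 18.3% for Gbp9 and 14.3% for Gbp4 also occur in transcripts of other genes, and the records of Gbp4, Gbp8 and Gbp9 overlap. On chromosome 3 the shares were 14.7% for Gbp7, 5.64% for Gbp3, 4.85% for Gbp2 and 3.05% for Gbp5. Gbp11, a further GBP of chromosome 5 outside the list, gave 771 and 414 normalized counts with EV, 213 and 179 with Pax5WT, 304 and 249 with Pax5K198Q, and 154 and 55 with Pax5K198R, and fell with Pax5K198R (-2.60).

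Per kilobase of the longest transcript, the leading GBP in Pax5-/- cells differed between the forms. With EV, Gbp8 was highest at 52.7 and 37 CPM per kb, followed by Gbp4 at 22.2 and 15.7, Gbp6 at 19.1 and 12.4, and Gbp7 at 12.6 and 10.8. The ranges of Gbp4 and Gbp6 overlapped, as did those of Gbp6 and Gbp7. With Pax5WT, Gbp7 stood at 32.4 and 30.1 and Gbp8 at 28.1 and 18.5, and with Pax5K198R Gbp7 stood at 34.5 and 25.1 and Gbp8 at 16.3 and 4.95. With Pax5K198Q Gbp8 still led, at 34.7 and 26.1 against 21.4 and 19.7 for Gbp7.

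**Figure D2:**
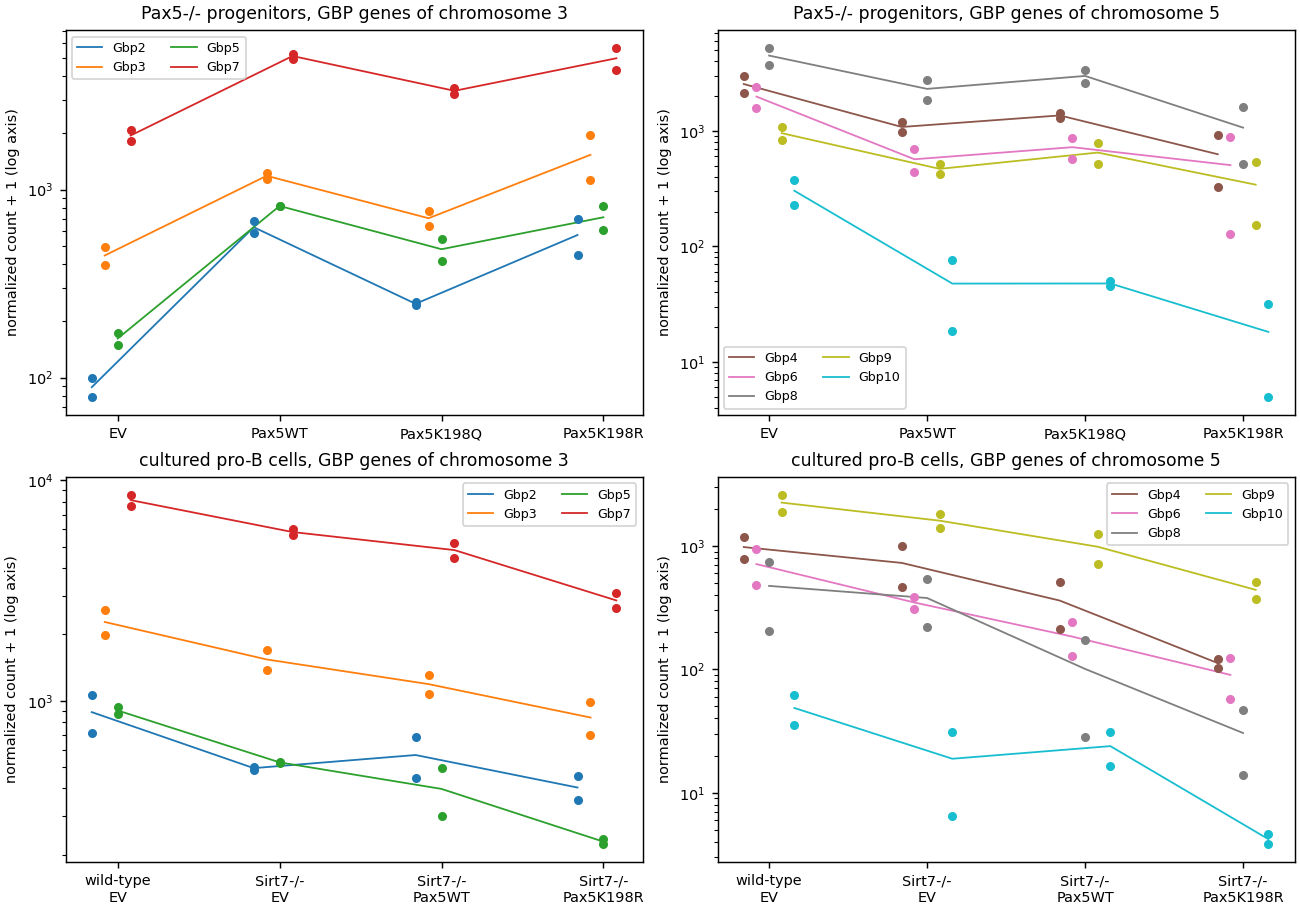
Normalized count plus 1 (log axis) of the GBP genes of chromosome 3 (left) and chromosome 5 (right), in Pax5-/- cells (top) and in cultured wild-type and Sirt7-/- pro-B cells (bottom). Points are libraries, 2 per group, and lines join group means. In Pax5-/- cells the 4 genes of chromosome 3 sit higher with each form than with EV and the 5 of chromosome 5 lower, whereas in Sirt7-/- cells both sets sit lowest with Pax5K198R.

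These calls depended on how the spread was estimated. Replicates were made on different days and same-numbered libraries of the cultured tables deviated together. With the replicate number as a block limma called 5 members higher and 2 lower with Pax5WT (Ifit2 added to the higher genes, Gbp4 and Gbp10 lower), 3 higher with Pax5K198Q (Gbp7 added), and 6 higher and 7 lower with Pax5K198R. The last set added Ifit3 to the higher genes and Irf1, Bst2, Gbp6 and Gbp9 to the lower ones. Over all 13345 genes the block called 671 higher and 672 lower with Pax5WT, 275 and 88 with Pax5K198Q, and 1257 and 1577 with Pax5K198R. Without replicate 1 or replicate 2 of Pax5K198R, whose spread enters the common estimate, 10 members were called with Pax5WT, 5 in each direction, beside 353 genes higher and 296 lower of 13286 without replicate 1 and 357 and 307 of 13271 without replicate 2, and leaving out any 1 of the other 6 libraries lost the call of Gbp3. With Pax5K198Q no member was called without EV replicate 1, EV replicate 2 or Pax5K198Q replicate 1. With Pax5K198R the calls of Gbp4, Gbp8 and Gbp10 were all lost without EV replicate 1 and without EV replicate 2, and that of Ifit2 without EV replicate 1. The call of Gbp10 was also lost without Pax5K198R replicate 2, and that of Gbp8 with no filter. Leaving out 1 library moved the log2 difference of Gbp10 between -5.90 and -3.22.

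Outside the GBPs, Ifit2, whose product binds viral RNA, was the only member that passed the test in these 3 comparisons. It gave 124 and 185 normalized counts with EV, 225 and 271 with Pax5WT, 157 and 224 with Pax5K198Q, and 415 and 471 with Pax5K198R. Both Pax5K198R libraries lay above all others, and the log2 difference from EV was 1.54 ± 0.26 (limma, adjusted p = 0.0099). Over the 29 tested members outside the GBPs, 15 had both Pax5WT libraries below both EV libraries and 4 above, against 21.3% of all genes in each direction, and with Pax5K198R 2 lay below and 5 above, against 23.2% and 23.5% of all genes. Bst2, the tetherin that holds virions at the cell surface, gave 2726 and 2634 with EV, 1604 and 1598 with Pax5WT, 2128 and 2027 with Pax5K198Q, and 1761 and 778 with Pax5K198R, without overlap between EV and any form. Oas1a, a synthetase of the RNase L pathway, gave 15 and 15.9 with EV and 72 and 90.2 with Pax5WT, and Oas3, of the same family, gave 33.5 and 24.4 with EV and 8.65 and 6.53 with Pax5WT. The 2 synthetase genes thus lay on opposite sides of EV, and neither passed the test, as Bst2 did not. With only the 2 groups compared, and without either Pax5K198R library, Oas1a was called higher and Bst2 lower with Pax5WT.

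The most abundant members of the other roles did not pass the test with any form. Stat2, a subunit of ISGF3, gave 1787 and 1392 normalized counts with EV and 1149 to 1778 with the 3 forms. Eif2ak2, the kinase PKR, gave 2067 and 1998 with EV and 1985 to 2723 with the forms, and Trim25, the ubiquitin ligase that activates RIG-I, gave 8165 and 7327 with EV and 5707 to 8205 with the forms. Over the 3 forms together the ranges overlapped with EV in each gene. Both Pax5WT libraries lay below both EV libraries for Stat2, at 1361 and 1365, and for Trim25, at 6673 and 6267, and so did both Pax5K198Q libraries for Trim25, at 6849 and 6372.

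The 2 Pax5K198R libraries disagreed on the direction of many members. Irf7 gave 453 and 417 normalized counts with EV against 758 and 94.1 with Pax5K198R, Oas2 gave 152 and 108 against 220.3 and 11, and Rtp4, a chaperone for receptors, gave 102 and 105 against 216 and 25.6. In all 3 genes replicate 1 lay above and replicate 2 below the EV range. Without replicate 1, 12 members were called lower and 5 higher against EV, and without replicate 2, 3 lower and 13 higher. Over all genes 985 were lower and 492 higher of 13286 in the former and 490 lower and 325 higher of 13271 in the latter; a lone library is then assumed to vary like the other groups. Irf7 fell without replicate 1 and Ifih1, Usp18, Parp14, Rsad2, Ifi35 and Xaf1 rose without replicate 2, while Dhx58 was lower in the former case and higher in the latter. Of the chromosome 3 genes, Gbp2, Gbp3, Gbp5 and Gbp7 were called higher in both.

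Several classical interferon targets were scarce in Pax5-/- cells and highest in replicate 1 of Pax5K198R. Isg15, the ubiquitin-like modifier, gave 18.7 and 13.9 normalized counts with EV, 12.9 to 16.8 with Pax5WT and Pax5K198Q, and 57.6 and 3.05 with Pax5K198R. Ifit1 and Ifit3, relatives of Ifit2, gave 8.1 and 6.97 and 10 and 1.99 with EV, against 107 and 14.3 and 157 and 24.3 with Pax5K198R. Both Pax5K198R libraries exceeded EV for the Ifit genes, whereas for Isg15 they lay on either side of it. Ifit1 passed the filter only through its Pax5K198R libraries, so its direction followed from the filter. Oasl2, an OAS-like protein, gave 68.1 and 48.6 with EV and 141 and 5.15 with Pax5K198R, and Zbp1 gave 10.9 and 2.93 against 20.2 and 2.37. Of the 31-base words of Ifit3, 61.8% also occur in Ifit3b, so its reads could be split between both genes. Mx1 stayed under 5 and Ifi44 under 3 normalized counts in every Pax5-/- library and were not tested.

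Interferon transcripts themselves were near absent. The 21 ligand genes summed to between 0 and 0.562 CPM over all 24 libraries; Ifna4 gave 6.19 and 2.03 normalized counts with Pax5K198R.

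The sum of 10 markers of plasmacytoid dendritic cells lay below EV with Pax5WT and overlapped with EV for Pax5K198Q and Pax5K198R. Siglech and Ccr9, named from this list after their values were seen, were lower on average with the forms, though Ccr9 with Pax5K198Q overlapped with EV. Siglech gave 2160.1 and 1439 normalized counts with EV, 713 and 381 with Pax5WT, 1130.4 and 712 with Pax5K198Q, and 366 and 76.2 with Pax5K198R. Ccr9 gave 4517 and 3212, 2238 and 972, 3618 and 2138, and 1949.5 and 523 in the same order. The list of 10 markers, which includes Bst2 and of which Klk1 was at 0 in every library, summed to 779 and 649 CPM with EV, 562 and 428 with Pax5WT, 687 and 527 with Pax5K198Q, and 655 and 382 with Pax5K198R; its most abundant genes were Ccr9, Tcf4 or Irf8. Of the 9 tested markers 1 was called lower with Pax5WT and 2 lower and 1 higher with Pax5K198R, beside 3.25% and 9.92% of all genes called in either direction. Their part in the GBP result was not tested.

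Between the forms, few members differed. No member was called between Pax5K198Q and Pax5WT, where 0.0225% of all genes were, although 4 members passed an unadjusted p of 0.05 (3.46% of all genes). The 4 chromosome 3 GBPs had a median log2 difference of -0.77. With the replicate block Gbp7 was called lower, among 18 genes lower and 11 higher. None was called between Pax5K198R and Pax5WT (2.87% of all genes; 7 members at an unadjusted p under 0.05, as 12.7% of all genes); with the block Ifit2 was higher and Irf1 and Gbp8 lower, among 340 genes higher and 664 lower. Without Pax5K198R replicate 1, 9 members were lower, among 484 of 13286 genes, and without its replicate 2, 7 were higher, among 61 of 13271. Pax5K198R exceeded Pax5K198Q in Gbp2 (1.18 ± 0.24, limma adjusted p = 0.033) and Ifit2 (1.23 ± 0.26, adjusted p = 0.039), where 5.01% of all genes were called. With the block 6 members were called there, Gbp2, Gbp3, Gbp7 and Ifit2 higher and Gbp4 and Gbp8 lower, beside 650 higher and 1099 lower over all genes. Without replicate 1 of Pax5K198R, 10 members were lower, neither Gbp2 nor Ifit2 among them, beside 725 genes, and without replicate 2, 12 were higher, Gbp2 but not Ifit2 among them, beside 111 genes. No member was called with no filter, with only the 2 groups compared, or without any 1 of the Pax5WT and Pax5K198Q libraries.

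In cultured Sirt7-/- pro-B cells, which carry their own Pax5, the GBPs of both chromosomes were lower with Pax5K198R than with EV. All 9 had both Pax5K198R libraries below both EV libraries, with a median log2 difference of -0.96 on chromosome 3 and -2.04 on chromosome 5. Over all tested members 21 of 38 lay lower in this way and 1, Bst2, higher, against 24.4% of all genes that lay lower. Pax5 RNA gave 25995 and 37113 normalized counts with EV, 43024 and 43260 with Pax5WT, and 38690 and 45426 with Pax5K198R.

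Gbp7 gave 5657 and 5997 normalized counts with EV, 5199 and 4453 with Pax5WT, and 2636 and 3066 with Pax5K198R. Gbp9 gave 1809 and 1391 with EV, 1251 and 717 with Pax5WT, and 509 and 370.2 with Pax5K198R. In both genes the Pax5WT libraries lay between the other groups. By limma Gbp7 (-1.03 ± 0.12, adjusted p = 0.0076), Gbp9 (-1.87 ± 0.30, adjusted p = 0.016), Gbp4 (-2.60 ± 0.47, adjusted p = 0.024), Gbp5 (-1.20 ± 0.23, adjusted p = 0.029) and Irf1 (-0.61 ± 0.13, adjusted p = 0.042) fell with Pax5K198R, where 4.83% of all genes were called. Gbp4 gave 993 and 461 with EV and 121 and 102 with Pax5K198R, and Gbp5 521 and 528 against 235 and 222. Irf1, the interferon-gamma-responsive factor that drives GBP transcription, gave 1929 and 2105 with EV and 1325 and 1315 with Pax5K198R. In these 3 genes as well the 2 groups did not overlap.

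With the replicate block 8 members fell with Pax5K198R, Gbp3, Gbp6 and Gbp8 in addition, beside 752 higher and 836 lower of all 13651 genes. Leaving out either wild-type EV library lost the call of Irf1. None was called without EV replicate 1, Gbp4 alone without EV replicate 2, Gbp7 and Gbp9 without Pax5K198R replicate 1, and Gbp7 alone without its replicate 2. Pax5WT gave no call against EV (0.0366% of all genes; 4 members at an unadjusted p under 0.05, as 9.91% of all genes), although 17 of 38 members lay lower in both libraries, against 19.7% of all genes, and with the block Gbp8 and Gbp9 were lower, among 149 genes lower and 119 higher. Between Pax5K198R and Pax5WT no member was called (0.425% of all genes; 6 members at an unadjusted p under 0.05, as 8.78% of all genes), and with the block Gbp4, Gbp7 and Gbp9 were lower, among 189 genes lower and 125 higher. These comparisons share EV or Pax5WT libraries. Stromal markers differed between the groups: 10 OP9 stroma genes summed to 187 and 230 CPM with EV, 327 and 544 with Pax5WT, and 236 and 412 with Pax5K198R, with Thbs1 or Cxcl12 the most abundant and none at 0. Their part in the result was not tested.

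In cultured cells with EV, Sirt7-/- and wild-type cells did not differ in any member by limma (0.557% of all genes called; 10 members at an unadjusted p under 0.05, as 9.68% of all genes). Of 38 tested members 36 were lower on average in Sirt7-/- cells, with a median log2 difference of -0.64 against -0.01 over all genes, and 15 had both libraries lower, against 17.2% of all genes. The size of these differences depended on replicate 2 of the wild-type. Ifi44, an interferon-induced cytosolic protein, gave 329 and 2529 normalized counts in wild-type and 355 and 469 in Sirt7-/- cells, and Xaf1, an antagonist of the apoptosis inhibitor XIAP, 1160.0 and 3084 against 1087 and 1136. In both genes replicate 1 of the wild-type lay near the Sirt7-/- values and replicate 2 far above them. Without replicate 1 the median was -1.26 and 5 members, Irf9, Irf7, Bst2, Ifi44 and Rtp4, were lower, among 13 of 13555 genes; without replicate 2 the median was -0.07 and none was called. Gbp5, at 873 and 931 in wild-type and 521 and 528 in Sirt7-/- cells, and Gbp7, at 7656 and 8615 against 5657 and 5997, had replicates close to each other and groups that did not overlap.

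In cells sorted from the marrow most members, and the antiviral effectors in particular by median, were higher in Sirt7-/- mice. In pre-B cells Oas1a and Oas3 passed the test, a call lost under most alternatives (no filter, quantile normalization, the 2 groups alone, the replicate block, edgeR and leaving out 7 of the 8 libraries, each in turn), and both Sirt7-/- libraries lay above both wild-type libraries for 22 of 38 tested members, against 22.1% of all genes, and below them for 5, against 19.4%. In pro-B cells the same held for 22 of 38 members upward, against 19.5% of all genes, and for Gbp9 alone downward, against 19.8%, but none passed the test. The 17 effectors had a median log2 difference of 1.02 in pre-B and 0.75 in pro-B cells, the 4 chromosome 3 GBPs 0.16 and 0.27, and all genes 0.02 and 0.00. Limma called 0.085% of all genes in pre-B cells and 0.0623% in pro-B cells; among the members 17 and 13 had an unadjusted p under 0.05, as did 13.6% and 5.94% of all genes.

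Oas1a gave 53.3 and 49.2 normalized counts in wild-type pre-B cells against 217 and 224 in Sirt7-/- pre-B cells, and 213 and 176 against 485 and 560.0 in pro-B cells. Oas3 gave 16.7 and 20.8 against 117 and 145 in pre-B and 205 and 152 against 358 and 405 in pro-B cells. In neither stage did the genotypes overlap, and in pre-B cells the gap was several times the distance between replicates. The log2 difference in pre-B cells was 2.09 ± 0.20 for Oas1a and 2.74 ± 0.27 for Oas3 (limma, adjusted p = 0.038 for each). In pro-B cells it was 1.42 ± 0.20 (adjusted p = 0.22) and 1.11 ± 0.27 (adjusted p = 0.58).

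**Figure D3:**
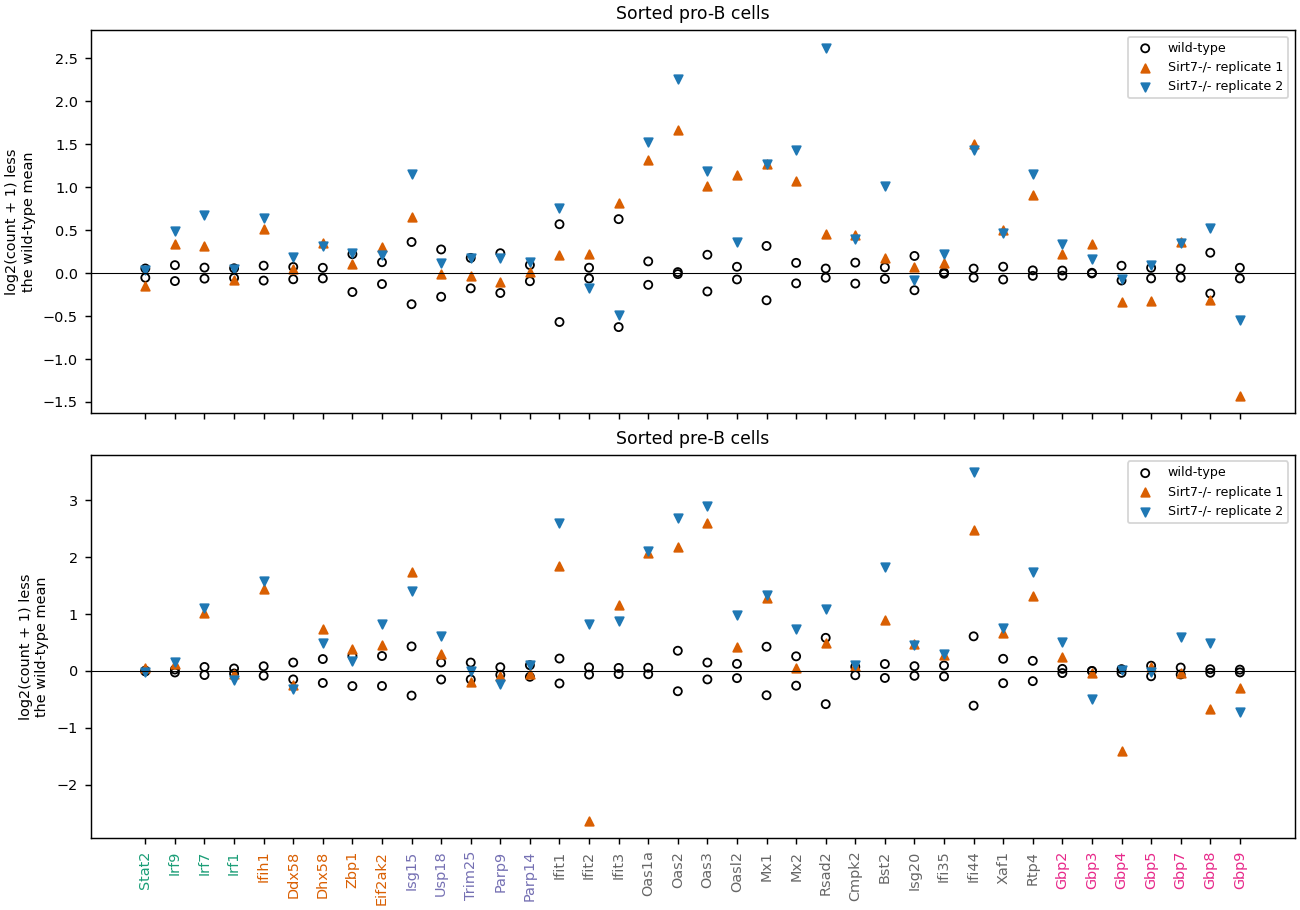
Each sorted library's log2(normalized count + 1) less the wild-type mean, for the 38 tested members in pro-B (top) and pre-B cells (bottom); open circles are the 2 wild-type libraries and triangles the 2 Sirt7-/- libraries. Gene names are coloured by role: signalling green, nucleic acid sensors orange, ISG15 system and ADP-ribosylation purple, antiviral effectors grey, GBPs pink. Both Sirt7-/- libraries sit above the wild-type for 13 of 17 effectors in pro-B and 14 of 17 in pre-B cells.

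The shared-read problem touches Oas1a, 68.8% of whose 31-base words occur in other transcripts, chiefly of Oas1g, but not Oas3, at 2.05%. Their promoters hold the response element close to the start, on the minus strand at chr5:120907526-120907555 for Oas1a and chr5:120777715-120777744 for Oas3 (RefSeq, GRCm38.p6), with capitals for the element.
Oas1a: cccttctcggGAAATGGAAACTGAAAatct
Oas3: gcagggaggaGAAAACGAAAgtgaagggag
The other 15 effectors did not pass the test, and their log2 differences in pre-B cells included -0.90 for Ifit2. Oas2, the third synthetase, gave 97.2 and 59 normalized counts in wild-type against 344 and 491 in Sirt7-/- pre-B cells, and 99.1 and 100.7 against 320.1 and 483 in pro-B cells. Ifi44 gave 29.3 and 12 against 109 and 221 in pre-B, and 314 and 292 against 863 and 819 in pro-B cells. Rtp4 gave 115 and 89.6 against 256 and 340.3 in pre-B, and 291 and 304 against 558 and 665 in pro-B cells. All 3 genes were higher in every Sirt7-/- library at both stages, with log2 differences of 2.42, 2.98 and 1.53 in pre-B cells and 1.97, 1.47 and 1.03 in pro-B cells. Mx1, a GTPase that blocks influenza virus, gave 24.3 and 38.2 against 75.2 and 74.7 in pro-B cells and 119 and 65.6 against 216 and 225 in pre-B cells, without overlap. Xaf1, the most abundant effector in sorted cells, gave 3916 and 3531 against 5259.9 and 5133 in pro-B, and 3313 and 2463 against 4525 and 4839 in pre-B cells, again without overlap.

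Among the regulators, Irf7 gave 282 and 256 normalized counts in wild-type and 547 and 581 in Sirt7-/- pre-B cells, and 281 and 308 against 368 and 471 in pro-B cells. Ifih1, the RNA sensor MDA5, gave 41.8 and 37.2 against 109 and 120.1 in pre-B, and 142 and 160.4 against 216 and 235 in pro-B cells. Both were higher in every Sirt7-/- library and neither passed the test. Stat2, at 4513 and 4863 in wild-type and 4218 and 4789 in Sirt7-/- pro-B cells, and Ddx58, the RNA sensor RIG-I, at 1421 and 1569 against 1544 and 1705, overlapped between the genotypes. Gbp9 went the other way, with 2458 and 2256 against 875 and 1617 in pro-B and 10696 and 11061 against 8795 and 6609 in pre-B cells.

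The 2 calls in pre-B cells were lost with no filter, with quantile normalization, with only the 2 groups compared, with the replicate number as a block, and with edgeR on the reads recovered from the table. They were also lost without any wild-type or any pro-B library; without Sirt7-/- pre-B replicate 2 the only call was Ifit2, lower, which gave 33.1 and 371 normalized counts in the 2 Sirt7-/- libraries and 219 and 200.05 in wild-type. Without Sirt7-/- pre-B replicate 1, Oas1a, Oas3, Ifi44 and Rtp4 were called higher, among 154 of 17492 genes. DESeq2 on the recovered reads called 9 members higher in pre-B cells (Irf7, Ifih1, Oas1a, Oas2, Oas3, Bst2, Ifi44, Xaf1 and Rtp4) and 4 in pro-B cells (Oas1a, Oas2, Ifi44 and Rtp4), where edgeR called none. Over all 17809 genes DESeq2 called 501 higher and 225 lower in pre-B and 46 higher and 83 lower in pro-B cells.

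In replicate 2 of Sirt7-/- cells the list of plasmacytoid dendritic cell markers had its lowest pre-B sum. The list of NK cell markers had its highest sum there at both stages. Siglech and Ncr1, 1 gene of each list and genes that B cells lack, were also highest there at both stages. Siglech gave 108 and 97 normalized counts in wild-type and 80.7 and 492 in Sirt7-/- pro-B cells, and 0 and 3.28 against 0 and 497 in pre-B cells. Ncr1, an NK cell receptor, gave 68.2 and 39.2 against 24.8 and 219 in pro-B and 0 and 0 against 0 and 121 in pre-B cells. The 10 plasmacytoid dendritic cell markers summed to 1351 and 1398 CPM against 1162 and 1218 in pro-B, and 4124 and 4280 against 3682 and 3360 in pre-B cells, with Spib, which B cells also express, the most abundant, and Siglech and Klk1 at 0 in replicate 1 of Sirt7-/- pre-B cells. The 8 NK cell markers summed to 9.96 and 8.69 against 10.3 and 24.2 in pro-B, and 6.94 and 4.54 against 8.30 and 17.9 in pre-B cells, where Klrb1c, Tbx21 or Eomes was the most abundant and Ncr1 and Gzmb were at 0 in every pre-B library but Sirt7-/- replicate 2. No gene of either list was called. Replicate 1 of Sirt7-/- pre-B cells had Siglech, Klk1 and Ncr1 at 0, but its NK cell sum lay above both wild-type pre-B libraries. Oas1a gave 217 and Oas3 117 normalized counts there, also above both wild-type pre-B libraries. The part of these cells in the difference between genotypes was not tested.

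The step from pro-B to pre-B cells moved more members than any other comparison. In wild-type cells 15 rose and 11 fell, and in Sirt7-/- cells 13 rose and 9 fell; over all genes 40.2% and 35.7% were called, and every count here is over the 38 that passed the filter. In both genotypes Stat2, Irf9, Irf1, Ddx58, Mx1, Gbp4 and Gbp9 were among those that rose, and Eif2ak2, Ifih1, Oas1a, Oas3, Ifi44 and Gbp7 among those that fell. Stage comparisons are within mice, and with the mouse as a block 16 rose and 12 fell in wild-type cells (Parp9 and Xaf1 added) and 14 rose and 9 fell in Sirt7-/- cells (Bst2 and Gbp3 added, Ifit2 lost).

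Of the signalling factors Stat2 gave 4513 and 4863 normalized counts in wild-type pro-B and 8101 and 8187 in pre-B cells. Irf9, its DNA-binding partner in ISGF3, gave 2145 and 1886 against 4523 and 4689.7, and Irf1 gave 1285 and 1389 against 2127 and 2262. Each stage formed a tight pair with no overlap, and the 3 genes rose by 0.80 ± 0.09, 1.19 ± 0.10 and 0.71 ± 0.11 on the log2 scale (limma, adjusted p = 0.0009, 0.00033 and 0.0024). In Sirt7-/- cells they rose by 0.87, 0.92 and 0.62. Irf7 did not pass the test in either genotype. Trim25 rose as well (0.94 ± 0.16 in wild-type and 0.78 ± 0.16 in Sirt7-/- cells), as did Parp14, an ADP-ribosyltransferase (0.79 and 0.74).

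The sensors split. Ddx58 gave 1421 and 1569 normalized counts in wild-type pro-B and 6669.6 and 5429.7 in pre-B cells, a rise of 2.01 ± 0.13 (limma, adjusted p = 0.00015), and 1.61 ± 0.13 in Sirt7-/- cells. Zbp1, a sensor of Z-form nucleic acids, rose by 1.16 ± 0.24 and 1.27 ± 0.24. Ifih1, however, gave 142 and 160.4 against 41.8 and 37.2 and fell (-1.91 ± 0.23, adjusted p = 0.00098), and Eif2ak2 gave 1125 and 943 against 295 and 204 and fell (-2.06 ± 0.22, adjusted p = 0.00069). In Sirt7-/- cells these 2 fell by 0.98 ± 0.23 and 1.68 ± 0.22.

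Among the effectors Oas3 gave 205 and 152 normalized counts in wild-type pro-B and 16.7 and 20.8 in pre-B cells (-3.17 ± 0.27, limma adjusted p = 0.00033), and Ifi44 gave 314 and 292 against 29.3 and 12 (-3.94 ± 0.47, adjusted p = 0.00093). Oas1a (-1.90 ± 0.20, adjusted p = 0.00067) and Rtp4 (-1.54 ± 0.23, adjusted p = 0.0021) fell too, and Bst2 (-1.48), Isg20 (-0.91) and Ifit1 (-2.15) fell in wild-type cells. Mx1 (1.51), Mx2 (1.15), Cmpk2 (0.80) and Ifi35 (0.50) rose in wild-type cells. In Sirt7-/- cells the falls of Oas3, Ifi44, Oas1a and Rtp4 were -1.54 ± 0.27, -2.43 ± 0.47, -1.23 ± 0.20 and -1.04 ± 0.23. The difference of the stage effect between the genotypes was tested as an interaction, and no member passed (1 gene of all, 0.00567%; 2 members at an unadjusted p under 0.05, as 5.43% of all genes; edgeR and DESeq2 called no member).

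The GBPs did not follow their chromosomes at this step. Gbp4 gave 194 and 173 normalized counts in wild-type pro-B and 2334 and 2232 in pre-B cells (3.63 ± 0.41, limma adjusted p = 0.00081), and Gbp9 gave 2458 and 2256 against 10696 and 11061 (2.21 ± 0.28, adjusted p = 0.0011). In Sirt7-/- pre-B cells Gbp4 gave 859 and 2307 and rose by 3.14 ± 0.41, and Gbp9 rose by 2.68 ± 0.28. On chromosome 3, Gbp7 fell from 1420.0 and 1527 to 338 and 367 (-2.06 ± 0.21, adjusted p = 0.00052) and by 2.14 ± 0.21 in Sirt7-/- cells. Gbp2 fell as well (-0.59 in wild-type and -0.49 in Sirt7-/- cells), while Gbp3 (1.02 in wild-type) and Gbp5 (0.60 and 0.75) rose. Per kilobase of transcript Gbp9 was the highest GBP at both stages in wild-type mice, at 9.63 and 8.64 CPM per kb in wild-type pro-B and 39.3 and 40.1 in pre-B cells; Gbp4 went from 0.847 and 0.735 to 9.53 and 9. In Sirt7-/- pro-B cells Gbp7, at 6.63 and 6.52, lay above Gbp9, at 3.41 and 6.26, and in Sirt7-/- pre-B cells Gbp9 was highest at 31.9 and 23.9.

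T cell transcripts were lower in pre-B libraries, while lists of other cells moved in both directions. Of 9 T cell markers 7 were called lower in wild-type pre-B cells and 6 in Sirt7-/- ones, their sum going from 112 and 111 to 58.6 and 55.3 CPM in wild-type cells, with Lck the most abundant and Cd3e, Cd3g, Cd8a and Bcl11b at 0 in both pre-B libraries. Of 10 myeloid markers 3 were called lower and 1 higher in wild-type cells, beside 22% and 18.1% of all genes, and the sum went from 678 and 486 to 288 and 277 CPM, with S100a9 or Itgam the most abundant and none at 0. Of the 10 plasmacytoid dendritic cell markers 3 were called higher and 2 lower in wild-type cells, and their sum, most of it Spib, was larger in every pre-B library than in any pro-B one. The part of these cells in the falling members was not tested.

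**Figure D4:**
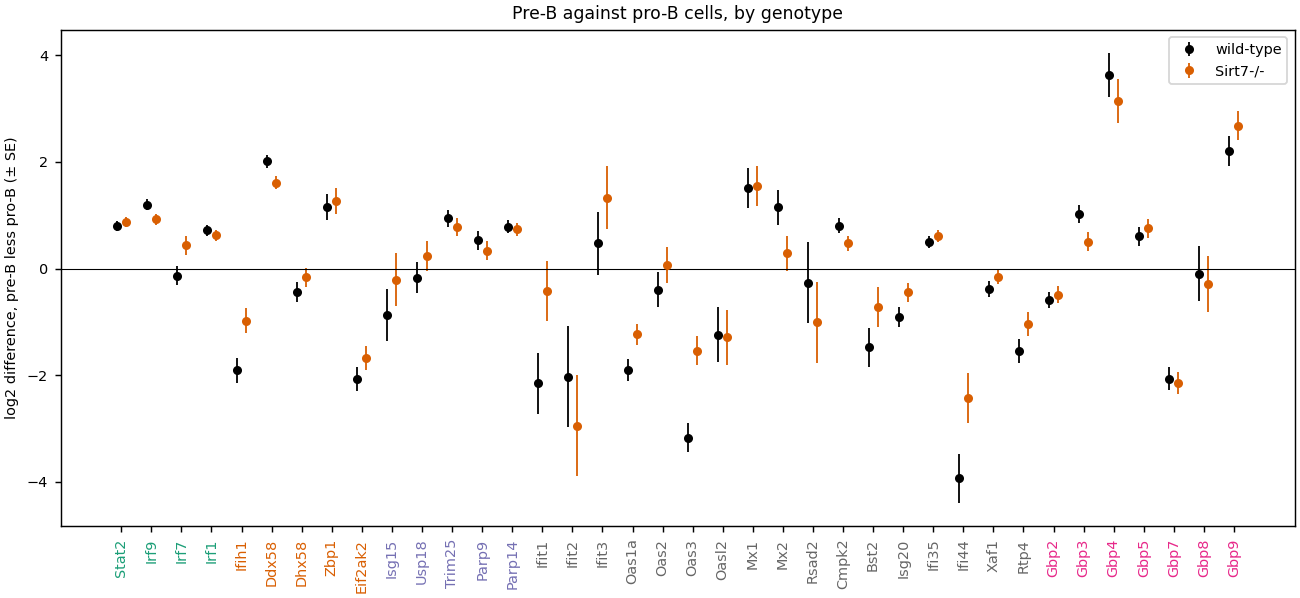
Log2 difference between pre-B and pro-B cells in wild-type (black) and Sirt7-/- mice (orange), with the standard error from limma as bars, for the 38 tested members; gene names are coloured by role (signalling green, nucleic acid sensors orange, ISG15 system and ADP-ribosylation purple, effectors grey, GBPs pink). Gbp4, Gbp9 and Ddx58 sit highest in both genotypes. Ifi44 sits lowest in the wild-type and Ifit2 in Sirt7-/- mice, and the 2 genotypes lie close together for most members.

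Sorted and transduced cells were set side by side as CPM levels, without a test, because the tables were normalized separately and culture, feeder cells, virus and counting differ between them and cannot be told apart. Of the 37 members that reached 1 CPM in at least 1 of the wild-type libraries, 21 were higher in both cultured libraries with EV than in both sorted pro-B libraries and 2 were lower, Stat2 and Isg20, against 45.1% and 38% of all genes; the median log2 difference of mean CPM plus 1 was 1.17. Of the 37, 6 reached this level only in cultured cells (Gbp8, Gbp10, Ifit1, Ifit3, Isg15 and Oasl2), so that their direction followed from the choice of genes. Gbp2, Gbp3, Gbp4, Gbp5, Gbp7 and Gbp9, which reached it in sorted cells too, were all higher in cultured cells, by 0.72 to 3.22 on the log2 scale. In Sirt7-/- cells 17 of 36 members were higher and 16 lower, against 46.4% and 37% of all genes; 2 reached 1 CPM only in cultured cells (Gbp8 and Gbp10) and 4 only in sorted cells (Mx1, Oas3, Rsad2 and Usp18). The same 6 GBPs were higher there by 0.54 to 2.68. With joint median-of-ratios scaling the split in Sirt7-/- cells was 14 higher and 18 lower, and without the 100 most abundant genes 16 and 18; the median over the members was then below 0 (-0.11 and -0.26, from 0.23).

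Gbp7 stood at 28.8 CPM on average in sorted and 276 in cultured wild-type cells, and at 36.9 and 203 in Sirt7-/- cells. Gbp3 went from 11.8 to 77.2 and from 14.2 to 53.6, Gbp4 from 3.59 to 33.4 and from 3.13 to 25.5, and Gbp8 from 0.658 to 16.3 and from 0.730 to 13.2. Of the 31-base words of Gbp4 and Gbp8, 14.3% and 31.1% occur in other genes. Their reads could therefore be assigned differently in the sorted and cultured libraries, which were counted differently. The cultured libraries of Gbp8 differed by more than 2-fold, at 25.9 and 6.78 CPM in wild-type and 18.9 and 7.53 in Sirt7-/- cells. In both genotypes the 4 genes were higher in every cultured than in every sorted library. Irf1, at 26.1 and 87 in wild-type and 25.9 and 70.3 in Sirt7-/- cells, and Eif2ak2, at 20.2 and 69.1 and at 24.1 and 53.8, did the same. Per kilobase, Gbp7 led in cultured wild-type cells at 47.6 and 50.9 CPM per kb, ahead of Gbp3 at 25.8 and 31.8.

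The remaining members depended on the wild-type library that stood apart. With it, 13 of 29 members outside the GBPs were higher in cultured cells and 2 lower; compared through replicate 1 alone, 13 of 26 were higher and 13 lower; through replicate 2 alone, 34 of 37 members were higher, GBPs included. In Sirt7-/- cells, whose replicates lay closer together, 10 of 28 members outside the GBPs were higher and 16 lower. Oas3 went from 7.47 CPM in sorted to 0.389 in cultured Sirt7-/- cells, Xaf1 from 102 to 38.8, Irf7 from 8.21 to 3.43 and Zbp1 from 5.47 to 1.25. All 4 were lower in both cultured libraries. The 10 stroma markers summed to between 6.89 and 13.9 CPM in sorted libraries and between 157 and 279 in the cultured ones with EV, and their part in the difference was not tested.

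**Figure D5:**
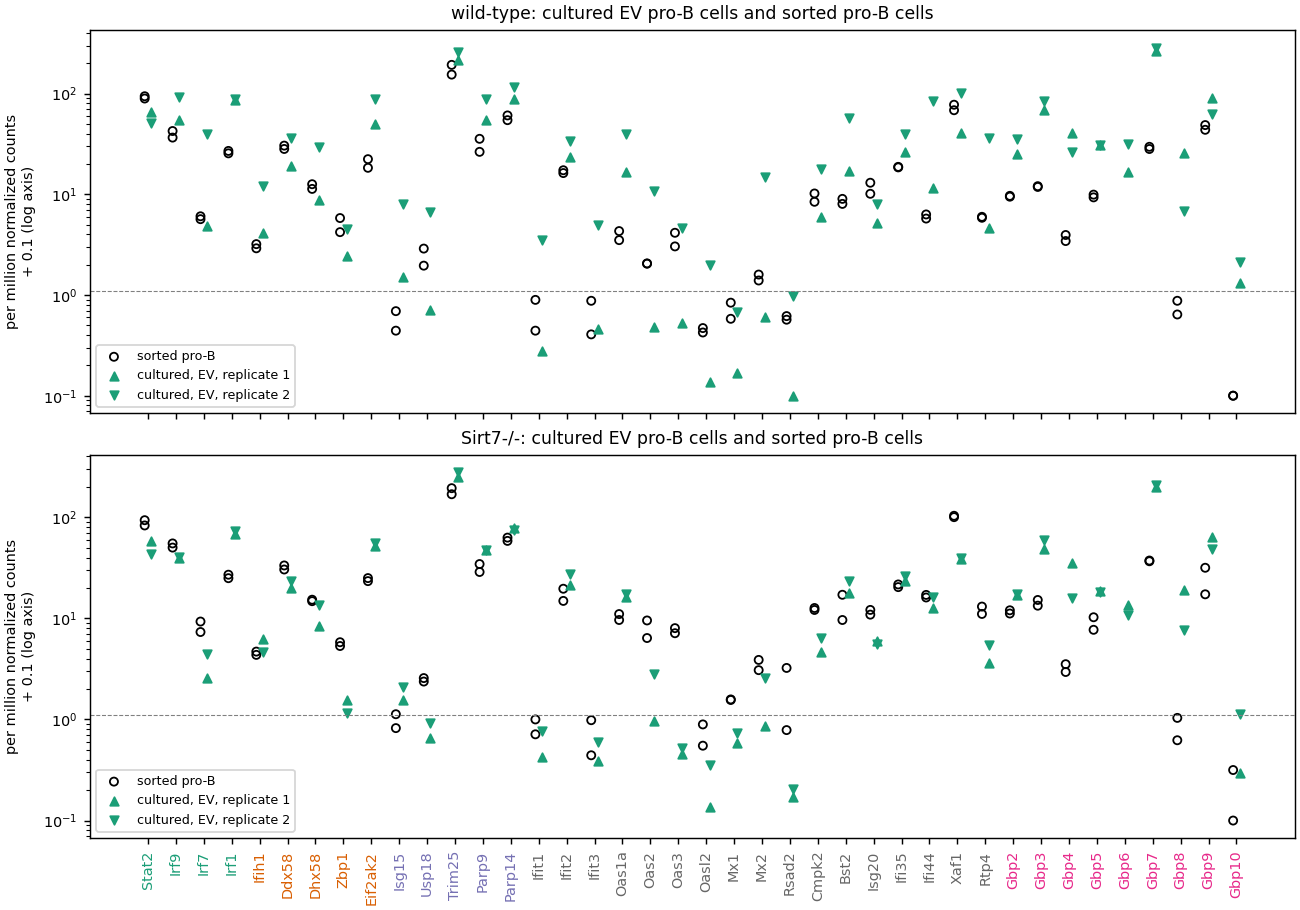
Level of each member in sorted pro-B libraries (circles) and cultured libraries with EV (triangles), as CPM plus 0.1 on a log axis, in wild-type (top) and Sirt7-/- cells (bottom); the dashed line is 1 CPM, Gbp6 has no sorted value, and gene names are coloured by role as signalling (green), sensors (orange), ISG15 system and ADP-ribosylation (purple), effectors (grey) and GBPs (pink). Gbp7 and Gbp3 sit well above their sorted values in both genotypes, while many effectors of the wild-type sit apart from each other in the 2 cultured replicates.

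Binding of the 3 Pax5 forms was measured by ChIP-seq in Pax5-/- cells, with peaks called against input in each of 2 replicates. Few members had a peak within 1 kb of a start in both replicates: 5 of 40 with Pax5WT (Irf9, Irf1, Eif2ak2, Trim25 and Cmpk2), 12.5% against 27.2% of all expressed genes, 6 of 40 with Pax5K198R (Ifih1 in addition), 15% against 33.1%, and 1 of 40 with Pax5K198Q (Irf1), 2.5% against 9.15%. The lists held 10646 and 11830 peaks with Pax5WT, 3750 and 3957 with Pax5K198Q, and 12158 and 13997 with Pax5K198R, and lists of unequal size are not compared gene by gene here. Counting a peak in either replicate, 10, 9 and 4 members had one with Pax5WT, Pax5K198R and Pax5K198Q, or 25%, 22.5% and 10% against 42.8%, 48.7% and 18.7% of all expressed genes. Over the gene and 10 kb upstream, 9, 8 and 1 members had a peak in both replicates (22.5%, 20% and 2.5% against 40.7%, 47.1% and 15.5%) and 15, 14 and 4 in either (37.5%, 35% and 10% against 58.2%, 63.3% and 29%).

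Irf1 was the only member with a peak near its start in all 6 lists, with a fold over input of 5.02 to 8.20 and a summit 91 to 151 bases upstream of the start. The 250 bases before its start, at chr11:53769764-53770013 on the plus strand (RefSeq, GRCm38.p6), hold the summits and, in capitals, a gamma-activated site pattern.
Irf1: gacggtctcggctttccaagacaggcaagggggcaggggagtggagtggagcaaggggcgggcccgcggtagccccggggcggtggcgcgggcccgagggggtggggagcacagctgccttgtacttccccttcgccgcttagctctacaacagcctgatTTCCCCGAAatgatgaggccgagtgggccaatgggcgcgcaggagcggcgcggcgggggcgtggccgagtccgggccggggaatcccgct
In Pax5-/- cells Irf1 gave 1439 and 1334 normalized counts with EV, 1399.6 and 1455 with Pax5WT, 1346 and 1305 with Pax5K198Q, and 1016 and 1154 with Pax5K198R, and it was called in none of these comparisons except, with the block, as lower with Pax5K198R. Eif2ak2 had a peak in 5 of the 6 lists, 35 to 61 bases upstream of its start, with a fold of 7.69 to 10.1.

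Over the 6 lists 3 peaks lay in the GBP clusters, and this number was not compared with the density of peaks over the genome. Across chr3:142493978-142638008 (144 kb, GRCm38) there was 1 peak with Pax5WT, in replicate 2, and 1 with Pax5K198R, in replicate 1, both in the first part of Gbp3 at 728 and 822 bases after its start, with folds of 6.34 and 4.26, and none with Pax5K198Q. Across chr5:105014150-105293698 (280 kb) the only peak was with Pax5K198R in replicate 2, with a fold of 4.68. It lay in an intron of the Gbp8 record, 75409 bases after its start. The minus-strand records of Gbp4, Gbp8 and Gbp9 begin at chr5:105139586, 105139540 and 105139539. The search near their starts therefore covered nearly the same bases. None of these 3 peaks was found in both replicates of a form. Ifit2 had a peak in an intron of its record in 1 replicate of Pax5WT and 1 of Pax5K198R, and none near its start.

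The rest of the pathway, taken from lists of interferon receptors, receptor kinases and factors, sensing adaptors, brakes, other interferon-stimulated genes and interferon-gamma-type GTPases with antigen presentation genes, gave few calls in transduced cells, where over all genes 3.25% were called with Pax5WT, 9.92% with Pax5K198R and 0.922% with Pax5K198Q in Pax5-/- cells. With Pax5WT in Pax5-/- cells Ifnlr1, the lambda interferon receptor, rose from 7.03 and 4.95 to 74 and 92.8 normalized counts (log2 difference 3.60) and Ifngr1, a chain of the interferon-gamma receptor, fell (-0.56), among 6 tested receptors. Ptpn6, a phosphatase that dampens signalling, fell (-0.63), among 6 brakes. Of 38 tested other interferon-stimulated genes 2 rose, Ifi209 (3.79) and Lgals9 (0.75). With Pax5K198R 2 of 6 receptors fell (Ifngr1 -0.62, Ifnar2 -0.45), 1 of 9 adaptors fell (Tmem173, the adaptor STING, -0.63), 4 of 38 other genes rose (Ifi209 5.44, Ifit1bl1 2.90, Lgals9 0.93, Pml 0.60) and 1 fell (Samhd1 -0.95), and 2 of 15 GTPase and antigen presentation genes fell (Gbp11 -2.60, Tap2 -0.76). With Pax5K198Q only Ifnlr1 (3.65) and Ifi209 (2.53) were called. No receptor kinase or factor was called in these 3 comparisons.

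Ifi209, a member of the PYHIN family of DNA-binding proteins, ran opposite ways in the 2 cell types, which also differ in strain. It gave 14.7 and 15.9 normalized counts with EV, 224 and 226 with Pax5WT, 91.2 and 95.4 with Pax5K198Q, and 755 and 663 with Pax5K198R in Pax5-/- cells. In cultured cells it gave 1659 and 1594 in wild-type with EV and 634 and 694, 556 and 572, and 163 and 128 in Sirt7-/- cells with EV, Pax5WT and Pax5K198R. Replicates were close in all groups. It was called lower in Sirt7-/- than in wild-type cells with EV (-1.29; 0.557% of all genes called) and lower with Pax5K198R than with EV in Sirt7-/- cells (-2.19; 4.83% of all genes). There the other calls were Tmem173 (-0.88), Ifi213 (-2.53), Herc6 (-0.68) and Nlrc5 (-0.76), the activator of MHC class I genes, all lower.

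In sorted cells no gene of these lists was called between the genotypes. Of 39 tested other interferon-stimulated genes, 20 were higher and 3 lower at the pre-B stage in the wild-type, against 18.1% and 22% of all genes, and 20 higher and 4 lower in Sirt7-/- mice, against 16.5% and 19.2%. Of 8 receptor kinases and factors 6 and 7 rose, and of 6 receptors 3 rose and 1 fell in each genotype. Socs1, the feedback inhibitor of JAK kinases, gave 447 and 528 normalized counts in wild-type pro-B and 3180 and 3270 in pre-B cells (2.73), Samhd1, a dNTP hydrolase, rose by 2.79, and Ifnlr1 fell (-3.39).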

How the data were processed

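RNA-seq libraries (150-bp paired-end, poly(A)) were quantified by the authors with Salmon on mm10 and imported with Tximeta. They were deposited as counts normalized with DESeq2, a count-scaled signal with no raw counts. From 3 tables, 24 library columns were used. For sorted cells 100% of values were whole multiples of 1 read, so the reads were recovered for edgeR and DESeq2 as alternatives (edgeR called 9 genes lower and 1 higher between genotypes in pro-B and 2 and 3 in pre-B cells, and 3647 and 3149 between stages in wild-type and 3083 and 2882 in Sirt7-/- cells); in the other tables steps were not whole and the depth is unknown. Values were taken as log2(normalized count + 1) and fitted with limma over the 4 groups of a table with a mean-dependent prior variance (trend), Benjamini-Hochberg adjusted over all genes tested, at 0.05; fold changes on this scale understate those of low genes. Per the methods, replicates were made on different days; same-numbered libraries deviated together in the Pax5-/- table (r of replicate differences 0.26 to 0.38) and the other cultured table (0.16 to 0.43), and stage comparisons in sorted cells pair libraries of a mouse (0.08 in wild-type, 0.16 in Sirt7-/-). Elsewhere in sorted cells the number joins different mice, though it may mark a day (r between genotypes 0.06 in pro-B and 0.04 in pre-B cells). The labels do not tie replicates of the transduced cells to separate animals, so their p-values may measure technical spread only. Levels between tables are normalized counts scaled to a common per-million total (CPM).

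ChIP-seq peaks were called by the authors with MACS2 per replicate against input at q under 0.05; the deposited lists give fold over input (a ratio) and the −log10 q-value, and were matched to starts on GRCm38. Names in the second Pax5K198R list carry another replicate number. Motifs were searched in 250 bases upstream of RefSeq starts. R 4.3.3, limma 3.58.1, edgeR 4.0.16, DESeq2 1.42.0 and Python 3.11.15 were used; limma was checked on simulated data.

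The members and lists were chosen with earlier results of these data known. Every member was accounted for; called members were named up to the 12 with the smallest p per comparison, with the most abundant member of each role and up to 6 called genes per pathway list. Alternatives were a pseudocount of 5, no filter, quantile normalization, only the 2 groups compared, the replicate block, edgeR, DESeq2 and leaving out each library; the Sirt7-/- pair of levels and the split of GBPs from other members were added after seeing the data. Values of some genes of the lists are not reported here.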

Additional observations from a re-analysis of the deposited data

Results flagged for a closer look

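Members whose libraries lay wholly above the comparison group in 1 cell type and wholly below it in another are given with the difference between the 2 log2 differences; none of these differences was tested, and 36 members were tested in both tables. Between Pax5WT and EV, the log2 difference in Pax5-/- cells exceeded that in cultured Sirt7-/- cells by 0.63 for Parp14, 1.79 for Gbp3, 2.79 for Gbp5 and 1.68 for Gbp7, and the excess was -1.23 for Bst2; 5 other members lay the same way in both cell types. Over all 12391 genes tested in both tables, 9.91% lay opposite ways and 7.34% the same way. Between Pax5K198R and EV it was 0.72 for Parp9, 2.97 for Gbp2, 2.62 for Gbp3, 3.33 for Gbp5, 2.39 for Gbp7 and -1.78 for Bst2, and 6 members lay the same way, among them Gbp4, Gbp6, Gbp8, Gbp9 and Gbp10, beside 13.8% and 10.5% of all genes. These values moved with the Pax5K198R library kept: without replicate 1 and without replicate 2, the log2 difference from EV in Pax5-/- cells was -1.78 and -0.61 for Bst2, 0.29 and 0.80 for Parp9, 1.34 and 2.13 for Gbp3, 2.35 and 2.98 for Gbp2, 1.92 and 2.34 for Gbp5 and 1.15 and 1.55 for Gbp7. Between Pax5K198R and Pax5WT it was 3.71 for Ifit1 and 1.1 for Ifit2, and 2 members lay the same way, beside 6.8% and 8.03% of all genes. Ifit1 passed the filter in Pax5-/- cells only through its Pax5K198R libraries (107 and 14.3 normalized counts, against 3.95 and 3.99 with Pax5WT), so its direction there followed from the filter, and without either of them it was not tested. The Pax5-/- and the cultured Sirt7-/- cells also differ in strain, which cannot be told apart from the cell type.

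Between Sirt7-/- and wild-type cells, the log2 difference in sorted pro-B cells exceeded that in cultured cells with EV by 1.28 for Irf9, 2.59 for Irf7, 2.92 for Oas3, 1.25 for Xaf1, 1.09 for Gbp2, 0.82 for Gbp3 and 0.84 for Gbp7, and Gbp9 alone lay the same way in both, beside 6.71% of 11119 genes opposite and 7.55% the same way. These rest in part on replicate 2 of the cultured wild-type cells: without it the log2 difference in cultured cells went from -2.09 to -0.53 for Irf7, from -1.82 to -0.12 for Oas3, from -0.77 to -0.06 for Xaf1 and from -0.86 to -0.45 for Irf9, and it was -0.54 for Gbp2, -0.37 for Gbp3 and -0.39 for Gbp7. Culture and normalization differ between the tables and cannot be told apart from the cell type.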

How the results depend on the processing

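Over 71 calls of members, 1023 alternative values gave 868 on the same side of the threshold, 155 past it no longer and none with the opposite sign; 119 of the 155 came from leaving out 1 library. Counts of called members that moved by more than 1.5 times were as follows, and their cause was not tested. With no filter, 0 were called between the genotypes in pre-B cells, 1 with Pax5K198Q and 0 between Pax5K198R and Pax5K198Q in Pax5-/- cells, and 2 with Pax5K198R in Sirt7-/- cells. With quantile normalization, 0 were called in pre-B cells and 1 between Pax5K198R and Pax5WT in Sirt7-/- cells. With only the 2 groups compared, 0 were called in pre-B cells, 9 with Pax5WT and 0 between Pax5K198R and Pax5K198Q in Pax5-/- cells, and 8 with Pax5K198R in Sirt7-/- cells. EdgeR called 0 in pre-B cells, and DESeq2 9 there and 4 in pro-B cells. With the replicate block, 0 were called in pre-B cells; in Pax5-/- cells 7 with Pax5WT, 13 with Pax5K198R, 1 between Pax5K198Q and Pax5WT, 3 between Pax5K198R and Pax5WT and 6 between Pax5K198R and Pax5K198Q; and in Sirt7-/- cells 2 with Pax5WT, 8 with Pax5K198R and 3 between these forms. The block moved no other count of calls by this much. Members with a peak in either replicate numbered 10 with Pax5WT and 4 with Pax5K198Q, and over the gene and 10 kb upstream 9 had one in both replicates with Pax5WT.

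Leaving out each library in turn gave 0 to 3 called members with Pax5K198Q, 3 to 10 with Pax5WT and 4 to 17 with Pax5K198R against EV in Pax5-/- cells, and 0 to 0, 0 to 9 and 0 to 12 for Pax5K198Q against Pax5WT, Pax5K198R against Pax5WT and Pax5K198R against Pax5K198Q. In cultured cells it gave 0 to 5 between the genotypes, 0 to 0 with Pax5WT, 0 to 7 with Pax5K198R and 0 to 0 between these forms. In sorted cells it gave 0 to 4 between the genotypes in pre-B and 0 to 0 in pro-B cells, 19 to 27 between the stages in wild-type and 15 to 21 in Sirt7-/- cells, and 0 to 0 for the interaction. Members higher in cultured than in sorted wild-type cells numbered 21 to 34 and lower ones 2 to 13, and in Sirt7-/- cells 17 to 19 and 16 to 17.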
